A study of Homo sapiens with 8 samples.

Results

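The collagen genes described here are the collagen chain genes and the enzymes and chaperone that modify, fold and crosslink their products. They were chosen by symbol (every numbered COL chain gene, LOX and LOXL1 to LOXL4, P4HA1 to P4HA3, PLOD1 to PLOD3 and SERPINH1) and had to reach 10 counts in at least 2 libraries. This gave 40 of the 23393 genes of the count table, namely 28 chains and 12 enzymes and chaperone, and all 40 were among the 15262 genes tested. A further 16 symbols fit the naming rule but not the minimum. Of these COL1A2 had 97 counts in ρ0 control replicate 1 and at most 4 in every other library, COL24A1 reached 10 counts in only 1 library, and the rest stayed at 7 counts or fewer.

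The libraries came from MDA-MB-231, an established breast cancer cell line that makes little ASS1, the enzyme with which cells rebuild arginine from citrulline. There were 4 groups of 2 libraries: parental and ρ0 control cells in full medium, and each of these lines after 48 h of arginine starvation. The ρ0 cells are clone 27, a derivative depleted of mitochondrial DNA and kept in medium with pyruvate, uridine and ethidium bromide, a DNA-binding dye that blocks replication of mitochondrial DNA. The labels give the starvation as arginine deiminase (ADI), an enzyme that breaks down arginine, at 0.3 µg/mL, while the study's methods describe medium without arginine. Because ρ0 is 1 clone kept in another medium, loss of mitochondrial DNA, clonal history and medium, the dye included, cannot be told apart in any comparison between the lines. The mitochondrially encoded genes were not analysed here, so the depletion itself was not checked. No source used here says whether the 2 libraries of a group came from separate cultures, so p-values measure the spread between these libraries, which may be technical.

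Collagens are triple helices of 3 chains. The chains are hydroxylated on proline by prolyl 4-hydroxylases and on lysine by lysyl hydroxylases in the endoplasmic reticulum, bound there by the chaperone HSP47 (SERPINH1), and crosslinked outside the cell by the lysyl oxidases. Fibrillar collagens (I, II, III, V, XI) form fibrils, collagen IV forms the network of basement membranes, collagen VI forms beaded filaments, collagen VII anchors basement membranes, FACIT chains sit on fibrils, and transmembrane and multiplexin chains lie at the cell surface or in basement membranes. Carcinoma cells of mesenchymal character make several of these chains themselves, and matrix crosslinked by lysyl oxidases is known for its part in the stiffness of breast tumours.

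Library totals ranged from 25259503 to 31022155 counts. The replicates of the ρ0 control group differed more than those of the other groups: the biological coefficient of variation of the pair was 25.1%, against 1.84 to 5.18% in the other pairs. The collagen genes shared this difference, with a median log2 ratio of replicate 1 over replicate 2 of 0.39 and a range from -1.04 to 1.36 in ρ0 control cells, where 5 of 40 members differed by more than 1 on the log2 scale. In the other groups the median ratio was between 0.00 and 0.03 and no member differed by more than 1. Values of members resting on ρ0 control cells are therefore mostly given with both libraries. Most genes of the related lists are given without them. Markers of the cell line were present: all 8 genes expected to be high in MDA-MB-231 were at 100.7 CPM or more in every library, with VIM the highest. The 7 genes expected to be low or absent, epithelial and luminal markers, were not all so in either line. They summed to 72.5 to 75.1 CPM in parental control, 23.0 to 23.4 in parental starved, 197 to 204 in ρ0 control and 84.4 to 100 in ρ0 starved libraries, and 2 of the 7 (ESR1 and PGR) stayed under 1 CPM throughout. In parental control libraries most of the sum was KRT19 (44.4 and 46.6 CPM) and ERBB3 (23.1 and 23.2 CPM), with GATA3 at 4.38 and 4.65 CPM. CDH1, the epithelial cadherin, had at most 2 counts in any parental library but was at 15.9 and 14.2 CPM in ρ0 control libraries. EPCAM was at 0.420 and 0.521 CPM in parental control against 23.7 and 22.4 CPM in ρ0 control libraries (log2 5.61 ± 0.23, adjusted p = 2.22e-06). GATA3 (14.5 and 18.6 CPM) and KRT19 (146 and 137 CPM) were also higher in ρ0 control libraries. ERBB3 was lower there, at 3.82 and 4.12 CPM (log2 -2.54 ± 0.13, adjusted p = 6.41e-06). The summed level of the 10 fibroblast markers was 46.9 to 48.1 CPM in parental control, 7.20 to 8.55 in parental starved, 6.95 to 17.7 in ρ0 control and 4.23 to 4.72 in ρ0 starved libraries. Of that list 7 of 10 genes stayed under 1 CPM in every library, the defining marker DCN among them. PDPN was the most abundant in parental libraries, at 42.6 and 43.2 CPM in control, and had 0 counts in every ρ0 library. PDGFRB was at 3.93 and 4.17 CPM in parental control and 11.55 and 3.25 CPM in ρ0 control libraries. LUM had at most 2 counts in any parental library but was at 5.55 and 3.22 CPM in ρ0 control libraries. The 5 endothelial markers summed to 13.9 to 15.0, 17.0 to 18.5, 9.74 to 9.89 and 21.2 CPM in the same order, most of it KDR. The part of these markers in the results on collagen genes was not tested.

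The summed level of all 28 chains was 1749 and 1680 CPM (counts scaled to library size by TMM) in the parental control libraries and 804 and 768 CPM in the parental starved ones. In ρ0 control libraries it was 3343 and 2190 CPM, and in ρ0 starved libraries 2760 and 2761 CPM. Parental starved libraries were thus lowest and did not overlap any other group, whereas the ρ0 starved libraries lay between the ρ0 control libraries. The 5 lysyl oxidases followed the same order, with sums of 701 and 694 CPM in parental control, 199 and 193 CPM in parental starved, 1524 and 1074 CPM in ρ0 control and 1250 and 1263 CPM in ρ0 starved libraries. Fewer cells making a transcript and less RNA per cell cannot be told apart in these bulk libraries. The plot of summed levels shows the contribution of each role.

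**Figure D1:**
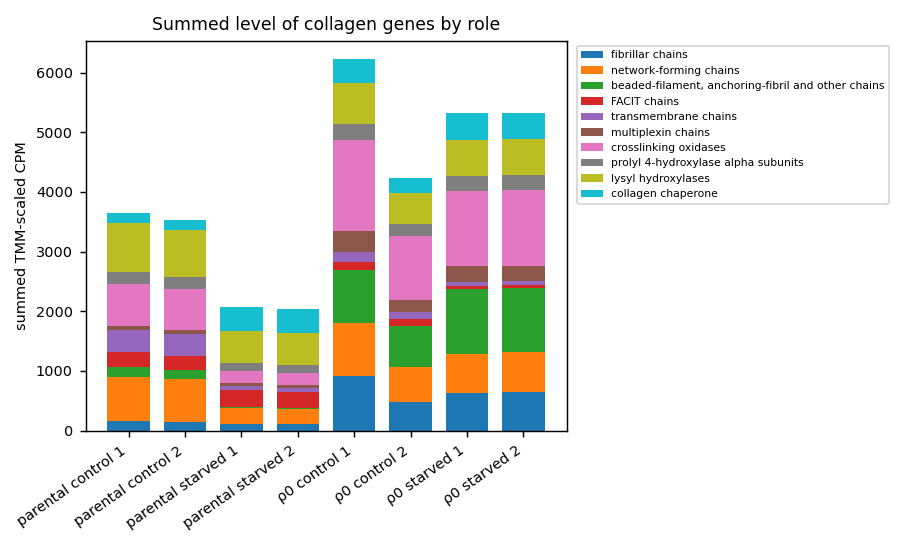
Summed TMM-scaled CPM (y axis, linear from 0) of the 40 collagen genes in each of the 8 libraries (x axis), stacked by role and not corrected for gene length. The parental starved bars are the lowest, at 2079 and 2031 CPM, and the ρ0 control replicates differ most, at 6222 and 4238 CPM.

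Per kilobase of transcript, the leading chains differed among the groups. Parental control cells had most COL13A1, a transmembrane chain, at 110 and 111 CPM per kb, followed by COL4A2 at 64.2 and 63.2. After starvation COL4A2 led at 25.04 and 23.4 CPM per kb, and COL12A1 overlapped it at 24.1 and 23.2. In ρ0 control cells COL6A1 (104.9 and 86.7 CPM per kb) and COL5A1 (104.9 and 54.1) overlapped at the top. COL4A2 (76.5 and 56.65) and COL6A2 (58.2 and 47.9) also overlapped COL5A1 there. In ρ0 starved cells COL6A1 stood alone at 151 and 148 CPM per kb, above COL6A2 at 83.5 and 80.4. Among the enzymes, the leading gene by group mean was PLOD2 in parental control (139 CPM per kb), SERPINH1 in parental starved (120) and LOXL2 in both ρ0 groups (249.2 and 290).

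**Figure D2:**
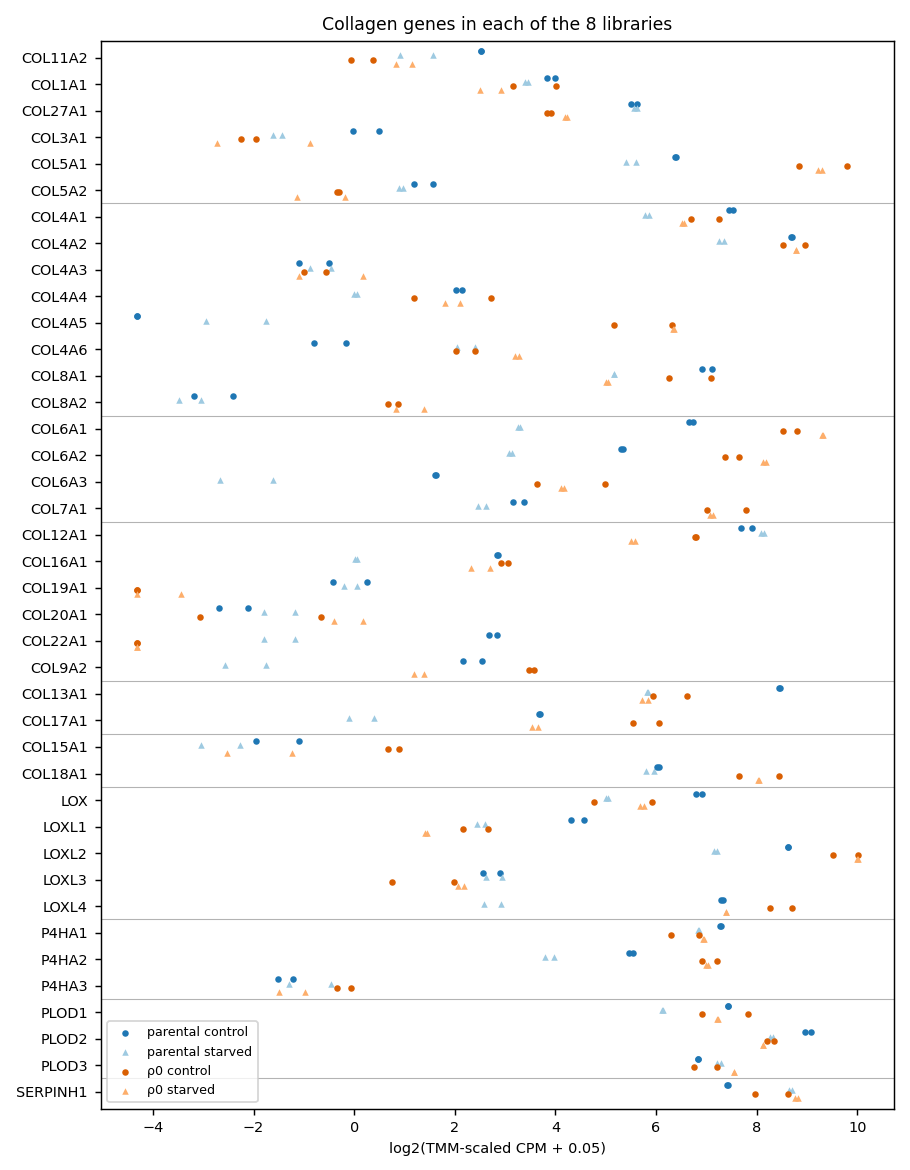
Level of each of the 40 members (y axis, grouped by role between the grey lines) as log2 of TMM-scaled CPM plus 0.05 (x axis), 1 point per library, with circles for control and triangles for starved cells. Blue points are parental and orange points ρ0 cells, and within COL6A1 the parental starved libraries are at 9.50 and 9.78 CPM against 639 and 628 CPM in the ρ0 starved ones.

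Arginine starvation of parental cells lowered much of the collagen gene set. With differentially expressed genes (DEGs) defined as genes with an adjusted p under 0.05 that moved by more than 1 on the log2 scale, 20 of 40 members (50%) were lower after starvation, against 22.1% of all genes tested. COL4A6 and SERPINH1 were the 2 members that were higher (5%), against 12.7% of all genes. At any fold change, 24 members fell (60%, 35.5% of all genes) and 4 rose (10%, 30.4% of all genes). The median log2 fold change of the members was -1.27, beside -0.07 over all genes tested, and 30 of 40 members had a value below 0. The 20 lower DEGs comprised 14 of 28 chains and 6 of 12 enzymes. They included all 3 collagen VI chains tested, 4 of the 5 lysyl oxidases, both transmembrane chains and COL4A1, COL4A2 and COL4A4.

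In ρ0 cells the same starvation moved fewer members than in parental cells. Here 7 of 40 members were lower DEGs (17.5%, against 8.19% of all genes) and COL4A6 was the 1 higher DEG (2.5%, against 4.22%). At any fold change 8 members fell (20%, 22.1% of all genes) and 5 rose (12.5%, 19.2% of all genes). The members' median log2 fold change was -0.07, beside -0.02 over all genes, and was 0.35 without ρ0 control replicate 1 and -0.20 without replicate 2. The lower DEGs were COL8A1, COL9A2, COL12A1, COL15A1, COL17A1, LOXL1 and LOXL4, of which 5 were also lower DEGs in parental cells (5 of 7 in ρ0 and 5 of 20 in parental cells). Of all genes tested 22.1% were lower DEGs in parental cells. The overlap of the calls over all genes was not counted, so the member overlap cannot be set against it. Without ρ0 control replicate 1 there were 3 higher and 5 lower DEGs, with COL4A5 and COL11A2 added and LOXL1 and LOXL4 lost. The shares of all genes were then 6.16% and 8.89%. Leaving out replicate 2 gave 2 higher and 9 lower DEGs, beside 6% and 10.1% of all genes. COL4A6 was no longer a DEG without replicate 2 (log2 fold change 0.85) or without either ρ0 starved library (adjusted p = 0.0517 and 0.0624), nor with upper-quartile or total-count scaling, which left 0 higher DEGs beside 7 and 8 lower ones.

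The difference between these responses was tested as an interaction, ρ0 minus parental, with an adjusted p under 0.05 and no fold threshold. It was positive for 18 of 40 members (45%, against 21.6% of all genes), which means that their log2 change was higher in ρ0 than in parental cells. It was negative for COL4A6, COL12A1 and SERPINH1 (7.5%, against 18.8%). The members' median interaction was 0.99 on the log2 scale, beside 0.02 over all genes. The positive ones comprised 10 chains and 8 enzymes. Without ρ0 control replicate 1 the counts were 26 and 5, beside 34.2% and 31.7% of all genes, and without replicate 2 they were 22 and 8, beside 29.8% and 29.7%.

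**Figure D3:**
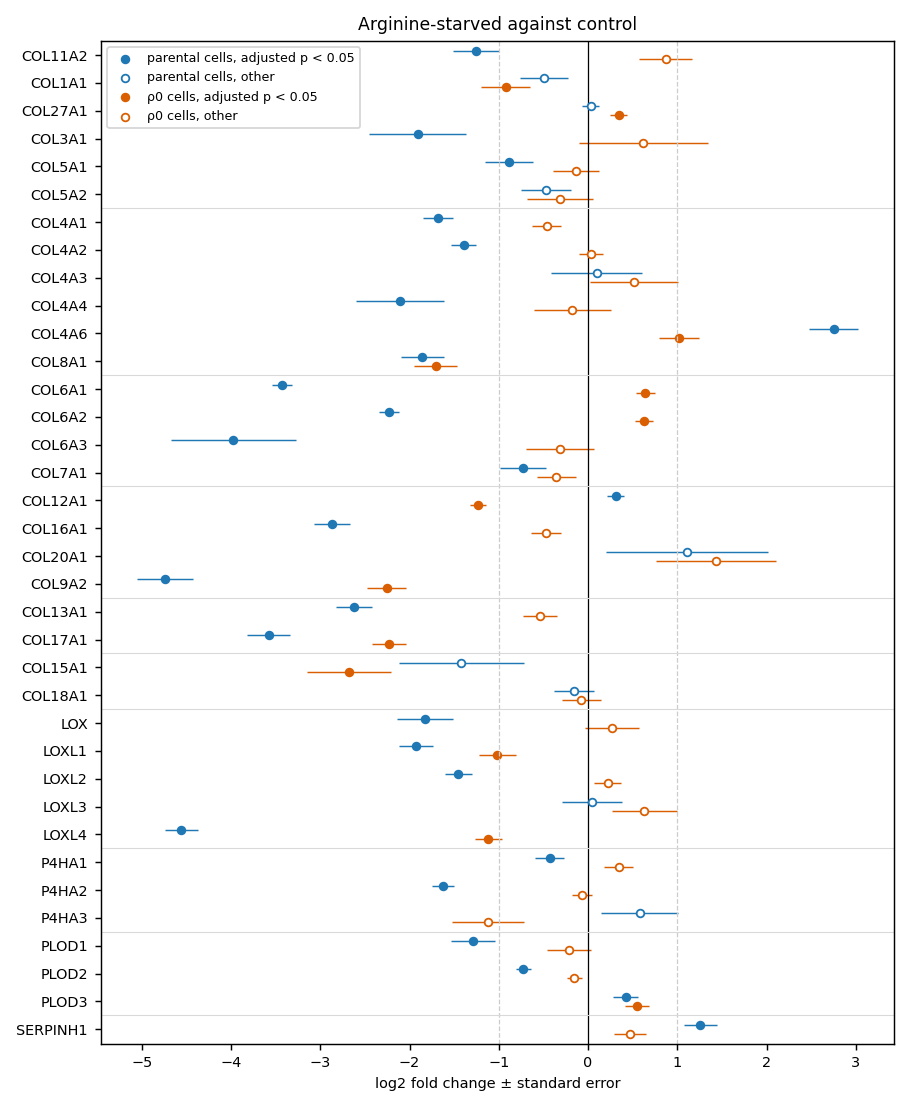
Log2 fold change with starvation (x axis, bars are standard errors) for 36 members (y axis, grouped by role) in parental (blue) and ρ0 (orange) cells, filled where the adjusted p is under 0.05, with dashed lines at the DEG threshold of 1. COL4A5, COL8A2, COL19A1 and COL22A1 are left out because they were at 3 counts or fewer in every library of at least 1 group, and the collagen VI chains COL6A1 and COL6A2 lie at -3.43 and -2.23 in parental cells but at 0.64 and 0.63 in ρ0 cells.

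ρ0 cells differed from parental cells in many collagen genes before starvation, in both directions. In full medium 16 of 40 members were higher DEGs in ρ0 cells (40%, against 13.6% of all genes) and 11 were lower (27.5%, against 17.3%). At any fold change 17 were higher (30.5% of all genes) and 14 lower (31.8% of all genes). Their median log2 difference was 0.11, beside -0.01 over all genes, and changed sign with the ρ0 control library used (-0.12 without replicate 1 and 0.37 without replicate 2). In starved cells 18 members were higher in ρ0 (45%, against 18.7% of all genes) and 6 lower (15%, against 16.8%). At any fold change these were 19 (32.9% of all genes) and 6 (33.5% of all genes), and the median log2 difference was 0.86, beside -0.01.

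**Figure D4:**
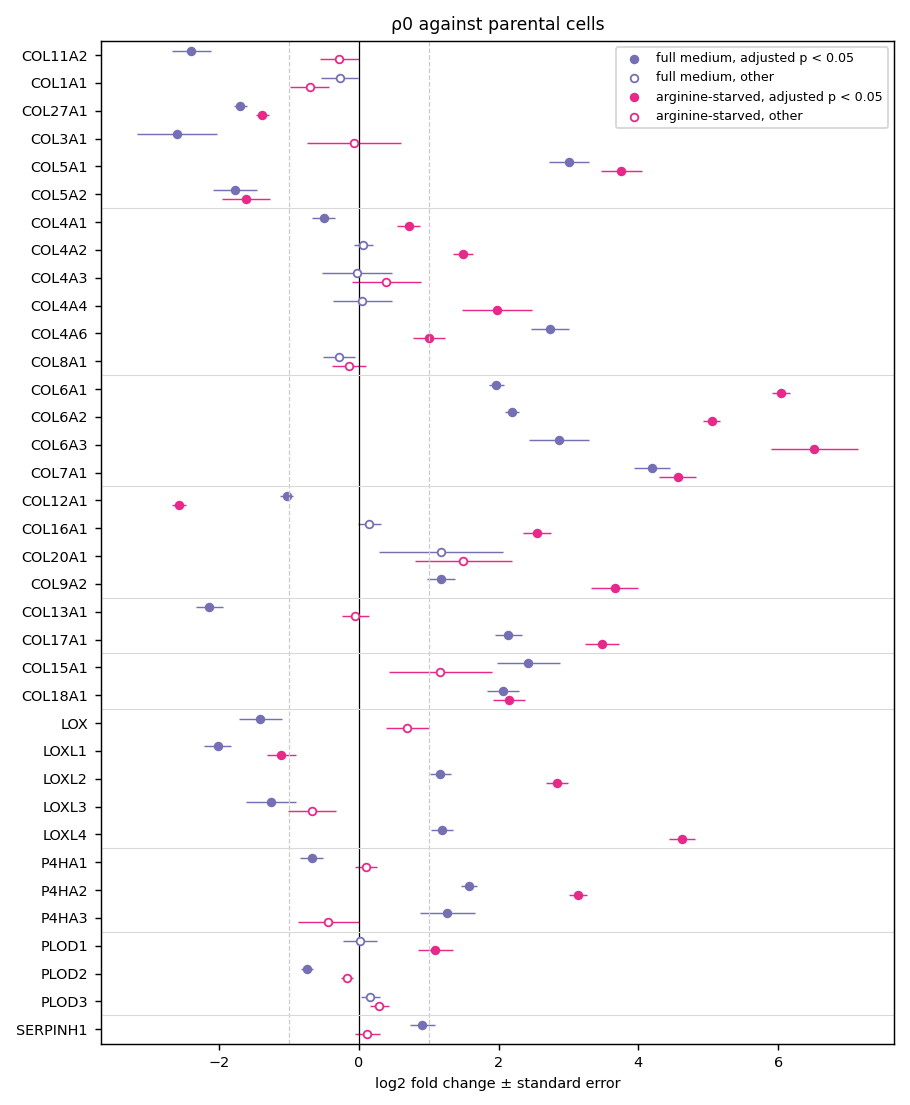
Log2 difference between ρ0 and parental cells (x axis, bars are standard errors) for 36 members (y axis, grouped by role) in full medium (purple) and after arginine starvation (pink), filled where the adjusted p is under 0.05, with dashed lines at 1 and -1. COL4A5, COL8A2, COL19A1 and COL22A1 are left out for the same reason as in the plot of starvation, and COL6A1 moves from 1.97 in full medium to 6.04 in starved cells.

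The collagen VI chains were lowest in starved parental cells and higher in both ρ0 groups than in either parental group. COL6A1, which encodes a chain needed to form the collagen VI heterotrimer, was at 107 and 101 CPM in parental control, 9.50 and 9.78 CPM in parental starved, 444 and 368 CPM in ρ0 control and 639 and 628 CPM in ρ0 starved libraries. No groups overlapped. It fell by 3.43 ± 0.12 (SE) on the log2 scale in starved parental cells (adjusted p = 4.87e-06) and rose by 0.64 ± 0.10 in ρ0 cells (adjusted p = 0.00244), with an interaction of 4.07 ± 0.15 (adjusted p = 3.6e-05). COL6A2, its partner chain, was at 39.6 and 40.8 CPM, 8.75 and 8.40 CPM, 201 and 166 CPM, and 289 and 278 CPM in the same order of groups. The order of the groups was that of COL6A1. COL6A2 fell by 2.23 ± 0.11 in parental (adjusted p = 9.81e-06) and rose by 0.63 ± 0.10 in ρ0 cells (adjusted p = 0.00266), and the interaction was 2.86 ± 0.15 (adjusted p = 8.96e-05).

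COL6A3, the longest chain of the trimer, was scarcer and more variable, at 3.03 and 2.99 CPM in parental control, 0.277 and 0.106 CPM in parental starved, 31.5 and 12.4 CPM in ρ0 control and 17.3 and 17.9 CPM in ρ0 starved libraries. The ρ0 groups overlapped, while the parental groups did not. The parental fall rested on 7 and 3 counts after starvation and was -3.97 ± 0.70 (adjusted p = 0.00171). The interaction of 3.66 (adjusted p = 0.0119) was no longer past 0.05 without parental starved replicate 2 (3.10, adjusted p = 0.0648). The ratio of COL6A1 to COL6A2 per kilobase was 2.20 and 2.02 in parental control libraries and 0.887 and 0.951 in parental starved ones. In ρ0 libraries it stayed between 1.80 and 1.84, so the chains fell unequally in parental cells.

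COL7A1, which forms the anchoring fibrils beneath epithelia, was at 8.90 and 10.3 CPM in parental control, 5.43 and 6.13 CPM in parental starved, 220 and 130 CPM in ρ0 control and 134 and 140 CPM in ρ0 starved libraries. Every ρ0 library lay above every parental library. The difference in full medium was 4.19 ± 0.26 on the log2 scale (adjusted p = 1.14e-05). COL7A1 fell in parental cells by 0.73 ± 0.26 (adjusted p = 0.0395), below the DEG threshold.

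**Figure D5:**
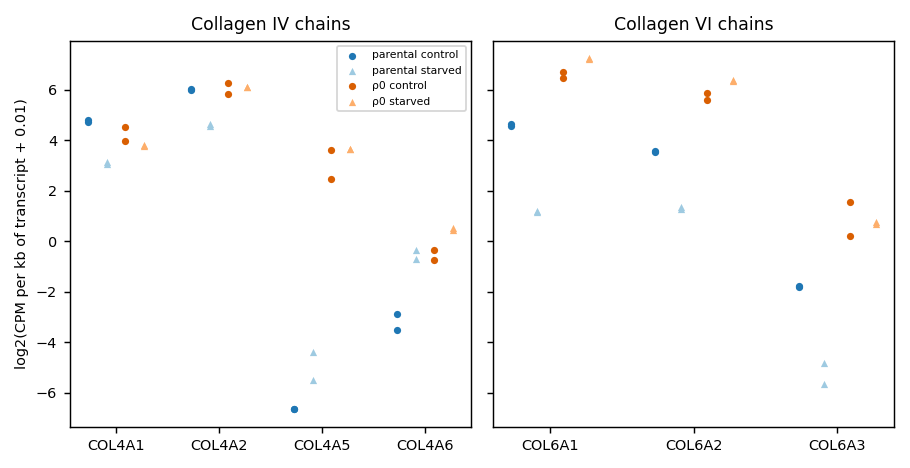
Level per kilobase of transcript, as log2 of CPM per kb plus 0.01 (y axis), of 4 collagen IV chains and 3 collagen VI chains (x axis), 1 point per library in the 4 groups. COL4A5 is at the bottom of the scale in parental control libraries, with 0 counts in both, and all 3 collagen VI chains are lowest in the parental starved libraries.

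The collagen IV genes lie head to head in 3 pairs, and sequence between the starts is shown for the pairs whose values are compared in the paragraphs on COL4A1 with COL4A2 and on COL4A5 with COL4A6. COL4A4 and COL4A3, whose starts are 418 bases apart, are not shown. The sequences are from RefSeq (GRCh38.p14), on the plus strand, with GC boxes (GGGCGG on either strand) and CCAAT boxes (CCAAT on either strand) in capitals. The COL4A1 and COL4A2 starts are 126 bases apart, at chr13:110307158-110307283, and all the bases between them are given. The stretch is 80.2% GC and holds 1 GC box and 1 CCAAT box. For COL4A6 and COL4A5, whose starts are 379 bases apart, the 250 bases before the COL4A5 start are given, at chrX:108439588-108439837. They are 51.2% GC and hold 2 CCAAT boxes and 0 GC boxes.
COL4A1 and COL4A2: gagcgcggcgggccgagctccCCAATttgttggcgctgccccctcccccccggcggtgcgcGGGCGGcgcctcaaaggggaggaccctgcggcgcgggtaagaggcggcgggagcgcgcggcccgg
COL4A6 and COL4A5: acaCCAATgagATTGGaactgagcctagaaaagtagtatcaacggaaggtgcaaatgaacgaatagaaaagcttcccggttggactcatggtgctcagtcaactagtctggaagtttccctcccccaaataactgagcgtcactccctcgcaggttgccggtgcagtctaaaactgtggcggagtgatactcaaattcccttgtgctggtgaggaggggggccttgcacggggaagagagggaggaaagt

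COL4A1 and COL4A2, the chains of the basement membrane trimer found in nearly all tissues, were both lower in starved parental cells. COL4A2 was at 417 and 411 CPM in parental control, 163 and 152 CPM in parental starved, 497 and 368 CPM in ρ0 control and 443 and 442 CPM in ρ0 starved libraries. The parental starved libraries stood below all others, and the ρ0 control libraries spanned the remaining groups. COL4A2 fell by 1.39 ± 0.14 on the log2 scale in parental cells (adjusted p = 9.21e-05), was at 0.03 ± 0.13 in ρ0 cells (adjusted p = 0.87) and had an interaction of 1.43 ± 0.19 (adjusted p = 0.00163). COL4A1 was at 185 and 176 CPM, 57.9 and 54.9 CPM, 152 and 103 CPM, and 91.1 and 93.7 CPM in the same order. Its parental fall was 1.68 ± 0.17 (adjusted p = 0.000101), its ρ0 change -0.46 ± 0.16 (adjusted p = 0.0558) and its interaction 1.21 ± 0.23 (adjusted p = 0.00624).

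The pair was therefore not held at a fixed ratio. Per kilobase, COL4A2 over COL4A1 was 2.29 and 2.38 in parental control, 2.86 and 2.82 in parental starved, 3.33 and 3.64 in ρ0 control and 4.95 and 4.80 in ρ0 starved libraries. The 4 groups did not overlap in this ratio, which was not tested.

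COL4A5 and COL4A6, chains of the basement membranes of kidney and smooth muscle among others, were both higher in ρ0 cells. COL4A5 had 0 counts in both parental control libraries, 2 and 7 counts in the parental starved ones, 2310 and 1113 counts in ρ0 control and 2399 and 1970 counts in ρ0 starved libraries. In full medium it was at least 597-fold higher in ρ0 cells, set against a floor of 3 counts per library. COL4A6 was detected in parental cells, at 0.840 and 0.521 CPM in control, 4.08 and 5.21 CPM in starved, 5.24 and 3.99 CPM in ρ0 control and 9.09 and 9.61 CPM in ρ0 starved libraries. The parental control libraries were lowest and the ρ0 starved libraries highest, and the middle groups overlapped. COL4A6 rose in parental cells by 2.75 ± 0.28 on the log2 scale (adjusted p = 0.000105) and in ρ0 cells by 1.02 ± 0.22 (adjusted p = 0.00949), with an interaction of -1.73 ± 0.36 (adjusted p = 0.00827). Intervals and floors based on counts cover counting error only.

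Of the other network-forming chains, COL8A1 fell in both lines. It was at 137 and 121 CPM in parental control, 35.8 and 35.6 CPM in parental starved, 136 and 76.0 CPM in ρ0 control and 31.9 and 33.0 CPM in ρ0 starved libraries. Starved libraries lay below all control libraries in both lines. The changes were -1.86 ± 0.24 (adjusted p = 0.000365) and -1.71 ± 0.24 (adjusted p = 0.00155), and the interaction was 0.15 ± 0.33 (adjusted p = 0.754). COL8A2, the partner chain of COL8A1, was at 2 and 4 counts in parental control and 1 and 2 counts in parental starved libraries, against 42 to 76 counts in ρ0 libraries, and was at least 19.1-fold higher in starved ρ0 cells than in starved parental cells. COL4A4, a chain of the glomerular basement membrane, fell in parental cells from 4.35 and 4.03 CPM to 0.950 and 0.993 CPM (log2 -2.10 ± 0.49, adjusted p = 0.00666). After starvation it was higher in ρ0 cells (1.98 ± 0.50, adjusted p = 0.00919), with adjusted p = 0.051 and 0.0503 without either parental starved library.

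Of the 6 fibrillar chains, 5 were DEGs between the lines in full medium, COL5A1 higher and 4 lower in ρ0 cells. The shares of all genes were 13.6% higher and 17.3% lower. With starvation in parental cells 2 of the 6 were DEGs, both lower, against 22.1% of all genes. COL5A1, a chain of collagen V that helps start fibrils, was at 84.0 and 83.3 CPM in parental control, 48.2 and 42.3 CPM in parental starved, 888 and 458 CPM in ρ0 control and 597 and 626 CPM in ρ0 starved libraries. Every ρ0 library exceeded every parental one, and the ρ0 groups overlapped. The difference between lines was 3.01 ± 0.28 in full medium (adjusted p = 7.78e-05) and 3.76 ± 0.29 in starved cells (adjusted p = 2.74e-05). COL5A2, with which COL5A1 forms the common collagen V trimer, went the other way, at 2.91 and 2.22 CPM in parental control and 0.763 and 0.740 CPM in ρ0 control libraries (log2 -1.77 ± 0.31, adjusted p = 0.00184). Per kilobase, COL5A1 over COL5A2 was 19.6 to 31.3 in parental libraries and 518 to 1230 in ρ0 libraries.

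COL27A1, a fibril-forming chain of cartilage, was at 45.2 to 49.2 CPM in the 4 parental libraries and 14.2 to 18.8 CPM in the 4 ρ0 libraries. It was lower in ρ0 cells by 1.69 ± 0.10 on the log2 scale in full medium (adjusted p = 8.49e-06) and by 1.38 ± 0.09 when starved (adjusted p = 1.51e-05). COL11A2, a collagen XI chain, fell in starved parental cells from 5.67 and 5.66 CPM to 1.82 and 2.91 CPM (log2 -1.25 ± 0.26, adjusted p = 0.00363). In ρ0 cells it was at 1.25 and 0.900 CPM before and 2.16 and 1.74 CPM after starvation (adjusted p = 0.0509), and the interaction was 2.12 ± 0.40 (adjusted p = 0.00567). Its parental DEG call was lost without parental starved replicate 1 (log2 -0.96). COL3A1 had 31 and 39 counts in parental control and 3 to 12 counts in all other libraries, and its parental fall (log2 -1.91, adjusted p = 0.0155) missed 0.05 when any of 3 libraries was left out, with adjusted p = 0.0977 without parental control replicate 2, 0.0859 without parental starved replicate 1 and 0.0744 without parental starved replicate 2.

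Among the FACIT chains, COL12A1 had the opposite pattern to most members. It was at 241 and 207 CPM in parental control, 282 and 272 CPM in parental starved, 109 and 111 CPM in ρ0 control and 47.9 and 45.5 CPM in ρ0 starved libraries. The 4 groups did not overlap. COL12A1 rose by 0.31 ± 0.09 on the log2 scale in parental cells (adjusted p = 0.0187) and fell by 1.23 ± 0.09 in ρ0 cells (adjusted p = 0.000181), with an interaction of -1.54 ± 0.13 (adjusted p = 0.000357). Its difference in full medium (-1.03) was near the DEG threshold, with values from -0.99 to -0.92 when parental control replicate 1, ρ0 control replicate 2 or either ρ0 starved library was left out.

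COL16A1 and COL9A2, minor chains of fibril surfaces, fell in parental cells. COL16A1 was at 7.20 and 7.05 CPM in parental control and 0.990 and 0.957 CPM in parental starved libraries, against 8.26 and 7.53 CPM and 6.46 and 4.93 CPM in ρ0 cells. The parental starved libraries were below all others, and the interaction was 2.40 ± 0.26 (adjusted p = 0.00083). COL9A2 fell in both lines, from 4.41 and 5.80 to 0.119 and 0.248 CPM in parental cells and from 11.9 and 11.1 to 2.57 and 2.24 CPM in ρ0 cells (interaction 2.48 ± 0.41, adjusted p = 0.00374). COL22A1, a chain of tissue junctions, had 236 and 183 counts in parental control, 6 and 11 counts in parental starved and 0 counts in all 4 ρ0 libraries. It fell by 4.39 ± 0.30 on the log2 scale in parental cells (adjusted p = 0.000106). It was at least 67-fold lower in ρ0 cells in full medium and at least 2.78-fold lower when starved.

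Both transmembrane chains fell in starved parental cells. COL13A1, found at cell adhesions, was at 350 and 353 CPM in parental control, 57.1 and 56.8 CPM in parental starved, 98.3 and 61.4 CPM in ρ0 control and 57.3 and 52.8 CPM in ρ0 starved libraries. The parental control libraries stood above all others, and the starved groups of the lines overlapped. COL13A1 fell by 2.63 ± 0.20 on the log2 scale in parental cells (adjusted p = 3.33e-05), with an interaction of 2.09 ± 0.27 (adjusted p = 0.00151). COL17A1, the hemidesmosomal collagen of epithelia, was at 12.95 and 12.7 CPM, 1.27 and 0.886 CPM, 66.4 and 46.6 CPM, and 12.5 and 11.5 CPM in the order of the groups. The ρ0 control libraries were highest and the parental starved libraries lowest. COL17A1 fell in both lines, by 3.58 ± 0.24 (adjusted p = 2.18e-05) and 2.23 ± 0.19 (adjusted p = 0.000236). The interaction of 1.35 (adjusted p = 0.0128) was at adjusted p = 0.07 without parental starved replicate 2 and at 0.0552 without ρ0 starved replicate 1.

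Both multiplexins of basement membranes were higher in ρ0 cells in full medium, and COL18A1 also after starvation. COL18A1, whose cleavage yields endostatin, was at 64.8 and 66.7 CPM in parental control, 62.5 and 55.4 CPM in parental starved, 350 and 201 CPM in ρ0 control and 265 and 259 CPM in ρ0 starved libraries. All ρ0 libraries exceeded all parental ones, by 2.07 ± 0.23 on the log2 scale in full medium (adjusted p = 0.000185) and 2.15 ± 0.23 when starved (adjusted p = 0.000134). Neither starvation contrast passed the test for COL18A1 (adjusted p = 0.564 and 0.822). COL15A1 was low, at 52 and 48 counts in ρ0 control and 2 to 12 counts in all other libraries, and fell in ρ0 cells (log2 -2.68 ± 0.47, adjusted p = 0.0039). Its starved libraries overlapped between the lines (adjusted p = 0.196).

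Of the remaining chains, which were outside the rule for naming and are given to account for every member, COL1A1 fell in ρ0 cells below the DEG threshold (log2 -0.92 ± 0.28, adjusted p = 0.0325), from 15.99 and 8.81 to 5.64 and 7.46 CPM. COL19A1 had 20 to 38 counts in parental and 0 or 1 in ρ0 libraries, a level at least 9.14-fold lower in full medium and at least 8-fold lower when starved. COL4A3 (10 to 32 counts) and COL20A1 (2 to 32 counts) passed the test in no contrast.

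Crosslinking enzymes fell together in starved parental cells, except LOXL3. LOXL2, a lysyl oxidase that acts on collagen IV among others, was at 394 and 395 CPM in parental control, 147 and 141 CPM in parental starved, 1038 and 731 CPM in ρ0 control and 1023 and 1037 CPM in ρ0 starved libraries. The parental starved libraries were lowest, and the ρ0 groups overlapped. LOXL2 fell by 1.45 ± 0.15 on the log2 scale in parental cells (adjusted p = 0.000129), was at 0.22 ± 0.15 in ρ0 cells (adjusted p = 0.275) and had an interaction of 1.67 ± 0.21 (adjusted p = 0.00139). LOXL4 was at 161 and 157 CPM, 5.94 and 7.52 CPM, 418 and 307 CPM, and 167 and 168 CPM in the order of the groups. It fell in both lines, by 4.56 ± 0.19 (adjusted p = 6.64e-06) and 1.12 ± 0.15 (adjusted p = 0.00139), with an interaction of 3.44 ± 0.23 (adjusted p = 0.000194). Without ρ0 control replicate 1, LOXL2 (0.89) and LOXL4 (0.95) were under the DEG threshold in the comparison of lines in full medium, as was the ρ0 fall of LOXL4 (-0.88).

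LOX, the founding lysyl oxidase, was at 121 and 111 CPM in parental control, 32.2 and 33.0 CPM in parental starved, 60.3 and 27.2 CPM in ρ0 control and 53.8 and 51.5 CPM in ρ0 starved libraries. The parental groups were apart, and the ρ0 groups overlapped. LOX fell by 1.83 ± 0.31 on the log2 scale in parental cells (adjusted p = 0.00141) and had an interaction of 2.10 ± 0.43 (adjusted p = 0.00827). In full medium it was lower in ρ0 cells, by 1.41 ± 0.31 (adjusted p = 0.00514), and under the threshold without ρ0 control replicate 2 (-0.89).

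LOXL1, which works on elastic fibres, was at 19.7 and 23.7 CPM in parental control, 6.02 and 5.39 CPM in parental starved, 6.28 and 4.44 CPM in ρ0 control and 2.67 and 2.61 CPM in ρ0 starved libraries. It fell in parental (-1.93 ± 0.19, adjusted p = 9.84e-05) and ρ0 cells (-1.02 ± 0.21, adjusted p = 0.00727). The call in ρ0 cells was lost without ρ0 control replicate 1 (-0.75), without either ρ0 starved library (adjusted p = 0.0564 and 0.0587), without a filter and with limma-voom. Its interaction (0.91, adjusted p = 0.037) missed 0.05 without any library outside the ρ0 control group, with adjusted p from 0.0609 to 0.126. In GENCODE annotation 9.87% of the LOXL1 exon bases are shared with LOXL1-AS1 on the opposite strand, and no source used here says that counting used strand. The median count over the libraries was 152 for LOXL1 and 540.5 for LOXL1-AS1. LOXL3, the least abundant lysyl oxidase in parental control cells per kilobase, was at 5.85 and 7.43 CPM in parental control, 7.56 and 6.10 CPM in parental starved, 1.63 and 3.89 CPM in ρ0 control and 4.12 and 4.47 CPM in ρ0 starved libraries. It passed the starvation test in neither line (adjusted p = 0.925 and 0.206). It was lower in ρ0 cells in full medium (-1.26 ± 0.36, adjusted p = 0.0167), a call lost without parental control replicate 2 (adjusted p = 0.0983) or ρ0 control replicate 1 (-0.76). LOXL3 shares 15.2% of its exon bases with HTRA2 on the opposite strand, with median counts of 147 for LOXL3 and 1275 for HTRA2. The part of these overlaps in the LOXL1 and LOXL3 counts was not tested.

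The prolyl 4-hydroxylase subunits differed from each other. P4HA2 was at 46.6 and 44.0 CPM in parental control, 13.7 and 15.6 CPM in parental starved, 148 and 121 CPM in ρ0 control and 127 and 131 CPM in ρ0 starved libraries. The ρ0 libraries lay above all parental ones, and starved parental libraries were lowest. P4HA2 fell by 1.63 ± 0.12 on the log2 scale in parental cells (adjusted p = 3.04e-05), was at -0.06 ± 0.11 in ρ0 cells (adjusted p = 0.687) and had an interaction of 1.56 ± 0.17 (adjusted p = 0.000741). P4HA1, the commonest catalytic subunit in most cells, was at 156 and 153 CPM, 114 and 115 CPM, 116 and 78.3 CPM, and 124 and 122 CPM in the order of the groups, with a parental fall of 0.43 ± 0.16 (adjusted p = 0.0466). P4HA3 was at 9 to 26 counts and was higher in ρ0 cells in full medium (1.26 ± 0.39, adjusted p = 0.0248), a call lost without either parental control library (adjusted p = 0.148 and 0.0771).

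Of the lysyl hydroxylases, PLOD1 and PLOD2 fell in parental cells and PLOD3 rose in both lines. PLOD2, which hydroxylates the lysines of collagen ends, was at 538 and 496 CPM in parental control, 306 and 319 CPM in parental starved, 324 and 296 CPM in ρ0 control and 278 and 278 CPM in ρ0 starved libraries. The parental control libraries stood above all others, with a parental fall of 0.73 ± 0.08 on the log2 scale (adjusted p = 0.000197) and an interaction of 0.57 ± 0.12 (adjusted p = 0.0082). PLOD1 was at 171 and 171 CPM in parental control and 70.7 and 69.6 CPM in parental starved libraries (-1.29 ± 0.25, adjusted p = 0.0027), and at 227 and 121 CPM against 149 and 150 CPM in ρ0 cells (adjusted p = 0.514). PLOD3, which also adds sugars to hydroxylysine, rose by 0.42 ± 0.14 in parental (adjusted p = 0.0275) and 0.55 ± 0.14 in ρ0 cells (adjusted p = 0.0158). It was at 147.5 and 107.9 CPM in ρ0 control and 187.5 and 186.1 CPM in ρ0 starved libraries. The interactions of P4HA1 (0.77, adjusted p = 0.0312) and PLOD1 (1.07, adjusted p = 0.0436) were past 0.05 only when all libraries or all but 1 ρ0 control library were used, with adjusted p between 0.0874 and 0.124 without any other library. That of PLOD2 was at 0.0507 without parental starved replicate 1 or ρ0 starved replicate 2 and at 0.0527 without ρ0 starved replicate 1.

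SERPINH1, the collagen chaperone HSP47, rose where most other members fell. It was at 169 and 173 CPM in parental control, 414 and 402 CPM in parental starved, 391 and 250 CPM in ρ0 control and 452 and 436 CPM in ρ0 starved libraries. The parental control libraries were below all others and the ρ0 starved libraries above. SERPINH1 rose by 1.26 ± 0.19 on the log2 scale in parental cells (adjusted p = 0.000669) and was at 0.47 ± 0.18 in ρ0 cells (adjusted p = 0.0745). The interaction of -0.79 ± 0.26 (adjusted p = 0.0442) was lost without any library outside the ρ0 control group, with adjusted p from 0.11 to 0.131, and also with upper-quartile scaling, total counts or limma-voom.

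Other genes of collagen folding and export also changed with starvation. Of 21 tested genes for folding, modification and export of procollagen, 13 fell and 4 rose in parental cells (35.5% and 30.4% of all genes), with a median log2 fold change of -0.53 beside -0.07 over all genes. In ρ0 cells 4 fell and 5 rose (22.1% and 19.2% of all genes), with a median of 0.14 beside -0.02. The members with the largest parental changes past the test were MIA2, an export factor that went from 13 and 17 counts to 1 and 0, P3H3, TMEM38B, CRTAP and P3H2. MIA2 was thus near the floor. CTAGE5, a more abundant gene of this list that is outside the naming rule, was 1 of the 4 that rose. It went from 579 and 456 to 806 and 903 counts (log2 0.95 ± 0.13, adjusted p = 0.000416). The prolyl 3-hydroxylases P3H3 and P3H2 fell by 1.65 ± 0.56 (adjusted p = 0.0324) and 1.16 ± 0.07 (adjusted p = 1.62e-05). CRTAP, a component of the prolyl 3-hydroxylation complex, fell by 1.17 ± 0.12 (adjusted p = 9.65e-05), whereas TMEM38B, an ion channel of the endoplasmic reticulum, rose by 1.503 ± 0.09 (adjusted p = 1.56e-05). FKBP10, a prolyl isomerase of procollagen, was at 284 CPM on average in parental control and 0.716 CPM in ρ0 control cells (log2 -8.62 ± 0.13, adjusted p = 6.48e-08). Of 8 collagen receptors tested, 4 fell and DDR2 rose in parental cells, against 35.5% and 30.4% of all genes, while DDR1, ITGB1 and GP6 did not pass the test. ITGA10, an integrin subunit of cartilage, fell by 4.40 ± 0.31 (adjusted p = 2.57e-05), with an interaction of 4.14 ± 0.43 (adjusted p = 0.000719). ITGA1 and MRC2 fell by 2.56 ± 0.33 (adjusted p = 0.000352) and 1.25 ± 0.46 (adjusted p = 0.0424), and DDR2 rose by 2.67 ± 0.41 (adjusted p = 0.000827). ITGA2, the main collagen-binding integrin subunit of epithelial cells, fell in parental cells by 2.68 ± 0.23 (adjusted p = 5.59e-05) and was at 0.36 ± 0.22 in ρ0 cells (adjusted p = 0.223), with an interaction of 3.04 ± 0.32 (adjusted p = 0.00071).

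Among 6 tested propeptidases and enhancers, 3 fell and 2 rose in parental cells, against the same 35.5% and 30.4% of all genes. PCOLCE, which speeds the cleavage of procollagen ends, fell by 2.53 ± 0.25 (adjusted p = 0.0001), and ADAMTS3, a procollagen peptidase, by 1.64 ± 0.22 (adjusted p = 0.000453). BMP1 fell by 0.63 ± 0.16 (adjusted p = 0.00842). The 2 that rose were TLL2, by 0.81 ± 0.21 (adjusted p = 0.0103), and PCOLCE2, by 0.655 ± 0.16 (adjusted p = 0.00806). PCOLCE2 was the more abundant of the PCOLCE genes, at 7.56 CPM on average in parental control against 4.35 CPM for PCOLCE. Of 12 tested further matrix genes, 7 fell and 1 rose in parental cells (35.5% and 30.4% of all genes), and 4 fell in ρ0 cells (22.1%). SPARC went from 73 and 73 counts to 2 and 1 in parental cells, and THBS2 from 38 and 24 to 2 and 3. ECM1 fell by 2.68 ± 0.26 (adjusted p = 8.09e-05), and FBN2, a fibrillin, rose by 2.56 ± 0.94 (adjusted p = 0.0432) at 1 to 28 counts. TGFBI, a matrix protein bound to collagen VI, fell by 3.96 ± 0.13 in parental cells (adjusted p = 4.87e-06), with an interaction of 3.33 ± 0.16 (adjusted p = 6.22e-05). Among 15 genes of TGF-beta signalling, a known inducer of collagen genes, 5 fell and 5 rose in parental cells, a share near that of all genes (35.5% and 30.4%), and 4 fell and 7 rose in ρ0 cells (22.1% and 19.2% of all genes). TGFBR3 (-2.81 ± 0.09, adjusted p = 4.87e-06), TGFBR2 (-1.55 ± 0.20, adjusted p = 0.000376) and SMAD3 (-1.24 ± 0.08, adjusted p = 1.51e-05) and LTBP2 (-0.93 ± 0.18, adjusted p = 0.00223) fell in parental cells, whereas the inhibitory SMAD7 rose (1.16 ± 0.13, adjusted p = 0.000198).

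In promoter sequences from RefSeq (GRCh38.p14), 31 of 40 members had an entry, with 41 promoters among them. In the 250 bases before the start, on either strand, a GC box (GGGCGG) was present in 25 of 41 member promoters (61.0%), against 42.6% of all 35116 promoters, and a CCAAT box in 10 (24.4%, against 32.0%). TATAAA was present in 6 (14.6%, against 10.7%). TGANTCA, the AP-1 sequence, and TGATGNAA, the composite of ATF4 and C/EBP, occurred in 0 of 41, against 6.6% and 3.1% of all promoters. These letters were looked for in this window alone. Some members had more than 1 promoter, and by member a GC box was present in 22 of 31. A share by gene over all promoters was not counted. The COL4A1 and COL4A2 starts are 126 bases apart, so their windows share bases and a box between them counts for both.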

How the data were processed

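RNA from MDA-MB-231 parental and ρ0 cells, control or arginine-starved, was sequenced as 8 libraries, 2 per group. The authors deposited 1 table of raw counts per gene symbol, which holds whole numbers. The submitters' processing notes name Bowtie, Partek and hg19, without versions or roles. The annotation used for counting is not given in the sources used here. Coordinates and promoter sequences are from GRCh38.p14, and transcript lengths and exon overlaps are from GENCODE (GRCh38), matched by symbol, with the longest basic protein-coding transcript used per gene.

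Differences were tested with edgeR 4.0.16 in R 4.3.3 (TMM, filterByExpr, quasi-likelihood test) over all 8 libraries with 1 mean per group. This left 4 residual degrees of freedom with a prior of 3.4, and a biological coefficient of variation of 12.4%. P-values were adjusted by Benjamini-Hochberg over all 15262 genes tested. A standard error is the absolute log2 change over the root of its F statistic. Fold changes of members with no library of a group above 3 counts are given as bounds against 3 counts per library. The fit was tested on simulated data with 200 genes changed by 2 on the log2 scale: 89% were recovered for starvation in parental cells and 76% for the interaction. In the simulated data each gene varied alike in every group. The real ρ0 control pair varied more than the other pairs (25.1% against 1.84 to 5.18%). These shares may therefore not hold for contrasts that use it, the interaction included. Because the groups share the estimated spread of a gene, this pair also enters the standard errors and p-values of the other contrasts.

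Alternatives were other scalings, filters and thresholds, DESeq2 1.42.0, limma-voom (limma 3.58.1), the replicate number as a block, narrower member lists and leaving out each library. Fits to the libraries of 1 line were added after seeing the data. The members and gene lists were chosen with earlier results of these data known. All 12 enzymes were named. Chains were named where they were a DEG in a comparison of 2 groups or passed the interaction test, with a mean of at least 1 CPM in a group, and so was the most abundant chain of each role. From each related list at most 5 genes were named per contrast, those with the largest change past the test. Genes outside this rule are said to be so.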

Additional observations from a re-analysis of the deposited data

Results flagged for a closer look

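The response to arginine starvation differed between the lines, by the interaction test, for 21 of 40 collagen genes, 18 in the positive direction (45%, against 21.6% of all genes) and 3 in the negative (7.5%, against 18.8%). The values are log2 fold changes in ρ0 cells minus those in parental cells, all with an edgeR adjusted p under 0.05. For the collagen VI chains they were 4.07 (COL6A1), 3.66 (COL6A3) and 2.86 (COL6A2). For the collagen IV chains they were 1.43 (COL4A2), 1.21 (COL4A1) and -1.73 (COL4A6). The FACIT chains gave 2.48 (COL9A2), 2.40 (COL16A1) and -1.54 (COL12A1), the transmembrane chains 2.09 (COL13A1) and 1.35 (COL17A1), and the fibrillar chain COL11A2 2.12. Among the lysyl oxidases the values were 3.44 (LOXL4), 2.10 (LOX), 1.67 (LOXL2) and 0.91 (LOXL1). The hydroxylases gave 1.56 (P4HA2), 0.77 (P4HA1), 1.07 (PLOD1) and 0.57 (PLOD2), and the chaperone SERPINH1 gave -0.79. Of these, COL6A1, COL6A2 and COL12A1 passed the test in opposite directions in the lines. No group had enough libraries to look for outlying samples.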

How the results depend on the processing

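Of 96 calls of a member in a comparison, 75 held under every alternative run on them (15 to 17 for each call, of 18 in all), 21 lost significance or the fold threshold in at least 1, and 0 reversed. Calls of members given as bounds were not among the 96 and were not checked in this way. They were COL19A1 and COL22A1 in both comparisons of the lines, COL4A5 in full medium and COL8A2 in starved cells. With 2 libraries per group, calls near a threshold depend on 1 library, and ρ0 control cells limit every comparison that uses them. The groups share the estimated spread of a gene, so the ρ0 control pair also enters the standard errors and p-values of the other comparisons. PLOD1, for example, was at 171 and 171 CPM in parental control and 70.7 and 69.6 CPM in parental starved libraries. The standard error of that change was still 0.25, with ρ0 control libraries at 227 and 121 CPM. With 1 library left out, the lone one is assumed to vary like the other groups, and without a ρ0 control library the estimated spread is smaller, so that more genes pass. Total counts moved the median of all genes to -0.23 in starved parental cells, and upper-quartile scaling to -0.19.

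The replicate numbers did not pair the samples (correlations of deviations from -0.053 to 0.039), and with the replicate block, 20 members were lower DEGs in parental cells, 18 had a positive interaction without it and 19 with it, and no call was lost. For starvation in parental cells, the members' median was -1.39 with upper-quartile scaling, -1.43 with total counts, -1.30 with at least 10 counts in every library, -1.32 for chains alone, -1.42 for members with at least 100 counts in 2 libraries, -1.31 for the parental libraries alone and -1.27 to -1.08 without each library. Higher DEGs were 1 among chains alone and 4 at any fold. For starvation in ρ0 cells, higher DEGs were 0 with upper-quartile scaling, total counts or the minimum of 10 counts, 5 at any fold and 0 to 3 without each library, and the median was -0.20 to 0.35. In full medium, 10 members were higher in ρ0 cells with the minimum of 10 counts. In starved cells the median difference was 0.93 (upper quartile), 0.90 (no filter), 0.70 (minimum of 10), 1.33 (chains alone), 1.05 (at least 100 counts) and 0.70 to 0.96 without each library. The interaction was positive for 10 among chains alone, negative for 2 to 8 without each library, with a median of 0.79 to 1.28. Narrower lists and minimum counts test fewer members; for scalings the cause was not tested.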
